A study of Mus musculus with 18 samples.

Results

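The 9 genes described here encode adrenergic receptors and the machinery through which they raise or limit cyclic AMP in the heart: Adrb1, Adra1a, Adra1b, Grk5, Adcy5, Adcy6, Pde3a, Pde4d and Crem. They were chosen by name, as well known parts of this pathway in heart muscle, from a count table of 30583 genes, and all 9 were found in it. The choice was made with earlier results of these data known, so shares of the 9 beside those of all genes only describe this list. RNA was sequenced from left ventricular myocardium of 12-week-old male C57BL/6JR mice, with infarcted myocardium taken from the ligated hearts. In 5 groups the left anterior descending coronary artery was tied off under pentobarbital anaesthesia, and the hearts were taken later, at 10 min or at 1, 6, 24 or 72 h. In the sham group the suture was passed but not tied, and this group, taken as 0 h, was the only control for every time point. Each group held 3 mice, giving 18 libraries. No sham hearts were taken at the later times, so hours since surgery and hours since ligation cannot be told apart.

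Noradrenaline from sympathetic nerves and adrenaline from the blood act on heart muscle mainly through the beta-1 receptor, which activates the stimulatory G protein and so adenylyl cyclase. Cyclic AMP then opens the route to protein kinase A, whose targets set the force and rate of the beat, while phosphodiesterases break the messenger down again. Alpha-1 receptors work through another G protein, Gq, and receptor kinases such as the product of Grk5 tag active receptors so that arrestins can switch them off. Sustained adrenergic drive with loss of beta-1 receptors is a well known feature of the failing heart.

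Library totals ran from 18199172 to 25062351 counts. The labels name cardiomyocytes as the cell type but describe no separation of cells, and markers of other cell types were present throughout. The summed level of 15 cardiomyocyte markers was 80518 to 86802 CPM (counts scaled to a common library size by edgeR's TMM method) in sham hearts, 35881 to 55685 at 24 h and 21595 to 28285 at 72 h, with none of the 15 at 3 counts or fewer. Over the same span 7 fibroblast markers went from 766 to 871 CPM in sham to 12265 to 15895 at 72 h, and 6 macrophage markers from 186 to 209 to 2628 to 3465. The first 6 h library stood apart: its 3 atrial markers summed to 151 CPM, against 3.41 or less in all other libraries. Its 6 neutrophil markers summed to 699 CPM, but these sums ran from 95.6 to 699 CPM at 6 h and from 32.9 to 613 CPM at 24 h. The third 24 h library had the fewest cardiomyocyte marker counts of its group, 35881 CPM. In these bulk samples, fewer cells of a type and less RNA per cell cannot be told apart, and the part that cell make-up plays in the results was not tested.

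Across the time course the 9 genes fell into 2 patterns. Grk5, the receptor kinase, and Crem, a transcription factor that responds to cyclic AMP, were higher than sham from 6 h on. The 3 receptors, both cyclases and both phosphodiesterases were lower than sham at 72 h, when all 9 genes passed the test against 66.4% of all 16311 genes tested. Of the 9, 7 were lower and 2 higher, beside 32.2% and 34.2% of all genes. At 24 h 5 of the 9 passed, 2 higher and 3 lower, where the share of all genes was 43.8% (23.7% higher and 20.2% lower). At 6 h 2 of 9 passed, both higher, against 28.4% of all genes and 16.3% higher. None passed at 10 min, when 0.0736% of all genes did, or at 1 h, when 0.294% did. By edgeR's unadjusted p under 0.05, 4 of 9 genes were past it at 10 min and 2 at 1 h, beside 7.01% and 5.51% of all genes. DESeq2 called 1 of the 9 at 10 min, Pde3a, and 0 at 1 h, and the share of all genes it called is not given here. The libraries did not overlap with sham for 5 of the 9 genes at 10 min and 6 at 1 h, beside 20% and 16.9% of all genes, and for all 9 at 72 h, beside 75.8%. The median log2 fold change of the 9 genes against sham was 0.28 at 10 min, 0.26 at 1 h, 0.05 at 6 h, -0.30 at 24 h and -1.09 at 72 h, while the median of all genes lay between -0.01 and 0.03. The 5 comparisons share the 3 sham libraries.

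**Figure D1:**
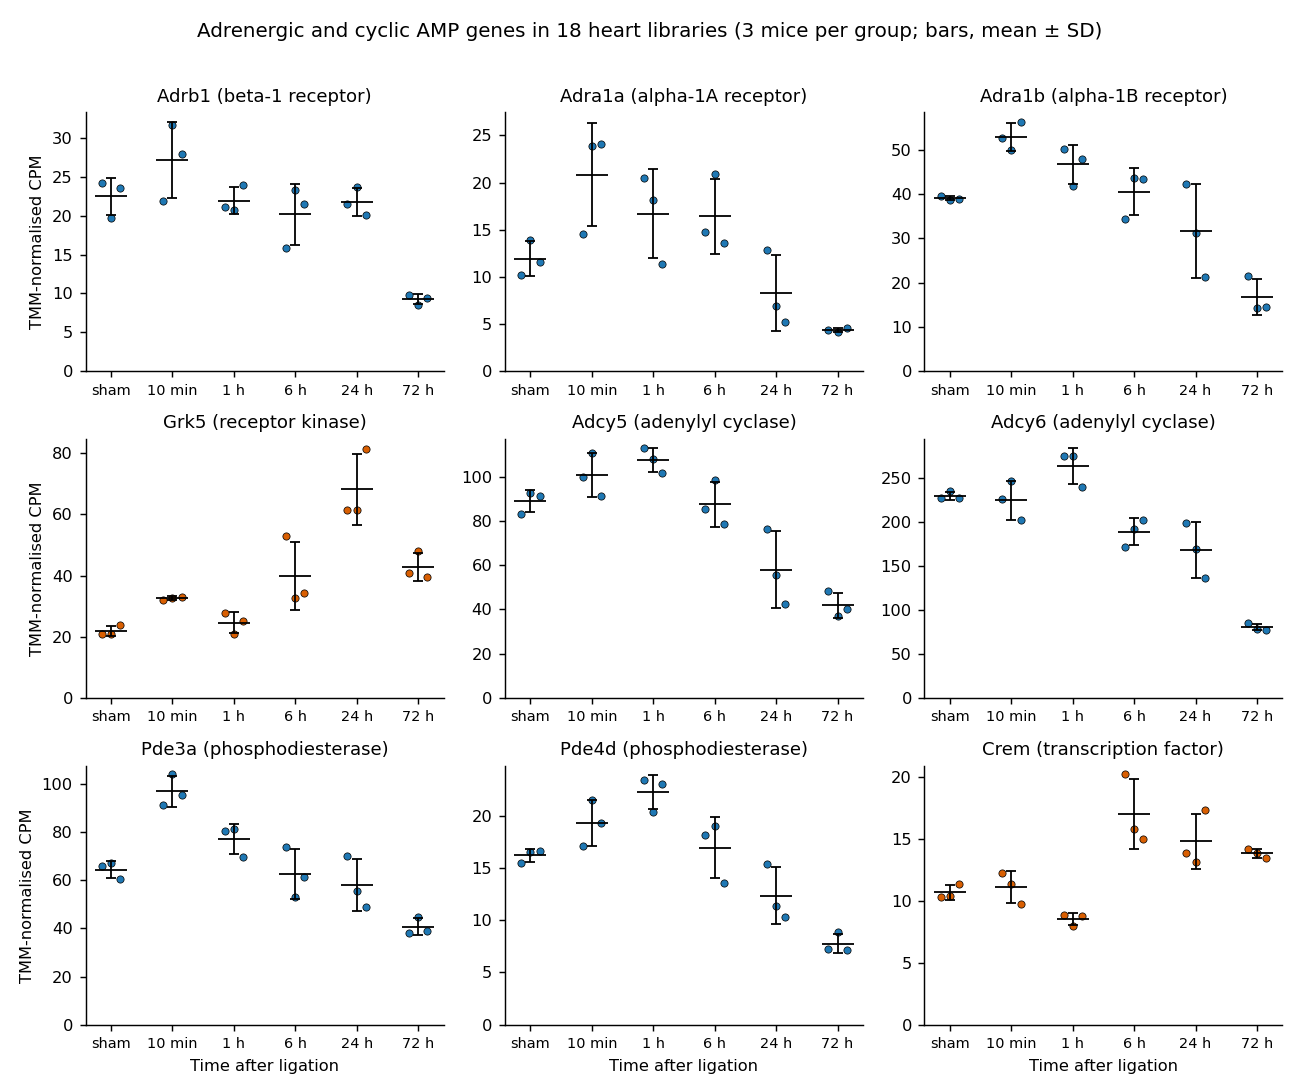
TMM-normalised CPM of the 9 genes (y axes, from 0) in each of 18 libraries, by group (x axes); points are single mice, horizontal marks the mean of 3 and bars the SD. The 3 receptors, 2 cyclases and 2 phosphodiesterases (blue) are lowest at 72 h, while Grk5 peaks at 24 h and Crem at 6 h (orange).

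Adrb1 encodes the beta-1 receptor, the main beta receptor of ventricular muscle (GRCm38 chromosome 19, positions 56722199 to 56733113, plus strand). No time up to 24 h passed the test, with log2 differences from sham of 0.28, -0.04, -0.15 and -0.05 in order of time. Sham libraries read 24.2, 19.7 and 23.6 CPM, and those at 24 h 21.5, 23.7 and 20.1 CPM. By 72 h the 3 libraries read 9.78, 8.53 and 9.45 CPM, all below the lowest of the other 15. Against sham this was a log2 fold change of -1.28 ± 0.15 (SE), 2.43 times lower, with an edgeR adjusted p of 4.77e-07. The step lay between the last 2 times, with a log2 difference of -1.23 ± 0.15 from 24 h to 72 h (edgeR adjusted p = 1.90e-06). Ranked by mean, the other 5 groups overlapped with their neighbours, from 27.2 CPM at 10 min to 20.2 CPM at 6 h.

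Adra1a encodes the alpha-1A receptor (chromosome 14, 66635251 to 66771168, plus strand) and had the largest SE of the 9 against sham, 0.29 to 0.31. In sham hearts it read 10.2, 13.9 and 11.6 CPM, and at 10 min 14.5, 23.9 and 24.1 CPM. Those groups did not overlap, but the edgeR adjusted p was 0.534. The 24 h libraries spread from 12.8 through 6.90 to 5.16 CPM, and the 72 h libraries were close together at 4.38, 4.14 and 4.52 CPM. At 72 h the gene was 2.73 times lower than sham (log2 -1.45 ± 0.31, edgeR adjusted p = 6.21e-04). Every 72 h value lay below every value of the other groups.

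The alpha-1B receptor gene, Adra1b (chromosome 11, 43774606 to 43901210, minus strand), was the more abundant alpha-1 gene per length. It held 71.8% ± 1.03 of summed alpha-1 FPKM in sham and 75.4% ± 4.08 at 72 h (SD, n = 3). Its sham libraries were tightly grouped at 39.7, 38.8 and 38.9 CPM. They read 52.7, 49.9 and 56.3 CPM at 10 min, all above sham, with a log2 difference of 0.44 ± 0.19 and an edgeR adjusted p of 0.677. Values at 24 h ran from 42.4 down to 21.2 CPM, so this group overlapped with both sham and 72 h. The 72 h libraries read 21.5, 14.2 and 14.5 CPM, 2.34 times below sham (log2 -1.23 ± 0.20, edgeR adjusted p = 3.15e-05).

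RefSeq start-site windows (GRCm38.p6, 250 bases before to 50 after the start) were at hand for 5 of the 9 genes, 6 windows in all. The 2 printed here belong to receptor genes that were lower together at 72 h, and they are the member windows in which any of the motifs searched was found. Capitals mark the matches. The Adrb1 window, chr19:56721867-56722166 on the plus strand, holds TGACG, one side of the cyclic AMP response element, from position -90. The upstream Adra1b window, chr11:43901188-43901487 on the minus strand, holds TGAGTCA, a match to the AP-1 motif TGANTCA, from position -198.
Adrb1: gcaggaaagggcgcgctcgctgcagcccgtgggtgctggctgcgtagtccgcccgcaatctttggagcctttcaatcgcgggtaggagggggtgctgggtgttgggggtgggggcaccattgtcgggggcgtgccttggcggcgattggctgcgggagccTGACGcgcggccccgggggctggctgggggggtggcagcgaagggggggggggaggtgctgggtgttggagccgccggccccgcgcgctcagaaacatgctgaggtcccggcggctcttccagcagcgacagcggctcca
Adra1b: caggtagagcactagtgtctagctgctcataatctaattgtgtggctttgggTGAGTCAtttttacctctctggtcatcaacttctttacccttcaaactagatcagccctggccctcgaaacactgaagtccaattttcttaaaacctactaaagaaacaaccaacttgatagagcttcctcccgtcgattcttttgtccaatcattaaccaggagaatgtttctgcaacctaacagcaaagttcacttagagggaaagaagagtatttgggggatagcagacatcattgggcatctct
Both strands were searched in all 32851 windows of the RefSeq table. TGACG occurs in 20.8% of them and TGANTCA in 7.81%. The full element TGACGTCA, found in 1.79% of all windows and overlapping TGACG, was in none of the 6 member windows.

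Grk5 encodes a G protein-coupled receptor kinase that phosphorylates active receptors and can also enter the nucleus of heart muscle cells (chromosome 19, 60889749 to 61095968, plus strand). It had the largest rise of the 9 genes. Sham libraries read 20.8, 21.0 and 23.8 CPM. At 10 min they read 32.1, 32.8 and 33.1 CPM, above all sham values, with a log2 difference of 0.58 ± 0.16 and an edgeR adjusted p of 0.337. At 1 h the values of 27.9, 21.0 and 25 CPM overlapped with sham again.
The rise that passed the test began at 6 h, with 52.8, 32.8 and 34.2 CPM and a log2 fold change of 0.87 ± 0.16 (edgeR adjusted p = 7.65e-04). The highest of these came from the library with atrial markers, and without it the value was 0.62 ± 0.14 (edgeR adjusted p = 0.00431). The peak came at 24 h, with 61.4, 61.6 and 81.5 CPM, 3.11 times sham (log2 1.64 ± 0.16, edgeR adjusted p = 1.26e-06). Here the highest value was in the library with the fewest cardiomyocyte marker counts, and without that library the log2 value was 1.49 ± 0.16. At 72 h the libraries read 40.7, 48.0 and 39.5 CPM, still 1.95 times sham (log2 0.97 ± 0.16, edgeR adjusted p = 3.57e-05) and below all 24 h values.

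Adcy5 and Adcy6 encode the adenylyl cyclases best known from heart muscle cells, both inhibited by calcium. Adcy6 (chromosome 15, 98589973 to 98610076, minus strand) had the highest level per length of the 9 genes in sham hearts, 35.3 ± 0.841 FPKM, and Adcy5 (chromosome 16, 35154877 to 35305738, plus strand) the next, 11.8 ± 0.805 FPKM (SD, n = 3). Adcy6 read 227, 235 and 227 CPM in sham and 275, 275 and 240 CPM at 1 h. At 24 h it read 199, 169 and 136 CPM, all below sham (log2 -0.45 ± 0.12, edgeR adjusted p = 0.00492). That 24 h call was lost with library totals (log2 -0.26, edgeR adjusted p = 0.0784) and with limma on FPKM (log2 -0.27, adjusted p of 0.068 and 0.0663 with the 2 pseudocounts). By 72 h it stood at 84.7, 78.7 and 77.7 CPM, 2.85 times below sham (log2 -1.51 ± 0.12, edgeR adjusted p = 4.97e-09). This was the largest fall of the 9 by its estimate, within the SE of that of Adra1a.

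Adcy5 was also lower than sham at 24 h and 72 h. Its libraries read 83.4, 92.6 and 91.2 CPM in sham, and 113, 108 and 102 CPM at 1 h, above sham in each mouse but with an edgeR adjusted p of 0.934. At 24 h they read 76.6, 55.4 and 42.3 CPM (log2 -0.62 ± 0.16, edgeR adjusted p = 0.00432), all below sham. The 72 h values of 48.2, 37.2 and 40.2 CPM were 2.13 times lower than sham (log2 -1.09 ± 0.16, edgeR adjusted p = 8.29e-06) and overlapped with those at 24 h. The lowest 24 h value of both cyclases came from the library with the fewest cardiomyocyte marker counts. Without it the 24 h log2 values were -0.43 ± 0.14 for Adcy5 and -0.32 ± 0.11 for Adcy6, with edgeR adjusted p of 0.0196 and 0.028.

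Pde3a encodes the phosphodiesterase on which inotropic drugs such as milrinone act (chromosome 6, 141249269 to 141507448, plus strand). It was the gene nearest to a call at 10 min. Sham libraries read 65.7, 67.0 and 60.3 CPM, and at 10 min 91.2, 104 and 95.3 CPM, with no overlap. The log2 difference was 0.59 ± 0.13, an unadjusted p of 2.09e-04 in edgeR and an edgeR adjusted p of 0.167. With no filter on low counts the adjusted p was 0.00911, with only the 6 libraries compared 9.82e-05, and in DESeq2 0.0109, so the call depends on the setting. At 6 h and 24 h the values overlapped with sham. By 72 h the libraries read 38.1, 44.6 and 39.1 CPM, 1.58 times lower (log2 -0.66 ± 0.13, edgeR adjusted p = 1.76e-04). That call was the one of the 9 at 72 h lost when libraries were scaled to their totals alone, where the log2 value was -0.07 ± 0.12 and the edgeR adjusted p 0.588.

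Pde4d encodes a phosphodiesterase that is found with beta receptors and with the calcium release channel (chromosome 13, 108449948 to 109953461, plus strand). Its libraries read 15.5, 16.5 and 16.6 CPM in sham and lay above that range in each mouse at 1 h, with 23.4, 20.4 and 23.0 CPM. The 1 h difference was log2 0.46 ± 0.15, with an edgeR adjusted p of 0.505, or 0.0136 when only those 6 libraries were fitted. At 24 h the values were 15.4, 11.4 and 10.3 CPM (log2 -0.39 ± 0.15, edgeR adjusted p = 0.0424). This was the least stable call of the 24 h comparison, lost in 12 of 27 other settings with adjusted p up to 0.322. At 72 h it read 7.26, 8.83 and 7.19 CPM, 2.09 times below sham (log2 -1.06 ± 0.15, edgeR adjusted p = 6.64e-06), and no 72 h value reached any value of the other groups. Counts per gene do not separate the many Pde4d isoforms.

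Crem encodes activators and repressors of genes with cyclic AMP response elements, among them the short repressor ICER, which gene counts do not separate (chromosome 18, 3266048 to 3337748, minus strand). Its sham libraries read 10.3, 10.4 and 11.4 CPM. At 1 h all 3 libraries lay below sham, at 8.84, 7.99 and 8.80 CPM, with a log2 difference of -0.32 ± 0.14 and an edgeR adjusted p of 0.814. The level then rose, and at 6 h it was 20.3, 15.8 and 15.0 CPM, a log2 difference of 0.99 ± 0.13 from 1 h (edgeR adjusted p = 7.49e-05) and of 0.67 ± 0.13 from sham (edgeR adjusted p = 0.00114). Without the 6 h library that held atrial markers, the difference from sham was 0.53 ± 0.13 (edgeR adjusted p = 0.00927). Later values stayed above all sham libraries. They were 13.9, 13.2 and 17.4 CPM at 24 h (log2 0.47 ± 0.13, edgeR adjusted p = 0.00808) and 14.2, 13.9 and 13.5 CPM at 72 h (log2 0.38 ± 0.13, edgeR adjusted p = 0.0168). The 24 h call was lost without the third 24 h library, at 0.34 ± 0.13 and an edgeR adjusted p of 0.055. The 72 h call was lost without the first or the second sham library, with edgeR adjusted p of 0.0559 and 0.05.

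Between consecutive times, no gene of the 9 passed from 10 min to 1 h, when 0.307% of all genes did, with 4 of the 9 at an unadjusted p under 0.05 beside 7.43% of all genes, and DESeq2 called 0. From 1 h to 6 h 3 passed, Grk5 and Crem higher and Adcy6 lower, against 24.5% of all genes. From 6 h to 24 h 4 passed, with Grk5 higher and Adra1a, Adcy5 and Pde4d lower, against 27.8%. From 24 h to 72 h 8 of 9 were lower, all but Crem, against 50.5% of all genes called and 26.1% called lower. The number of genes called, in either direction, depends on the scaling: with library totals 3 were called from 24 h to 72 h and 5 from 1 h to 6 h, and with limma on log2(FPKM + 1) 4 and 5. Adra1a, Grk5, Adcy5, Pde3a and Pde4d lost the 72 h step under both. The F test over the 6 groups called all 9 genes and 78.4% of all genes.

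Because cardiomyocyte RNA made up less of the later libraries, the same counts were also scaled to 15 cardiomyocyte genes, 9 of the sarcomere and 6 of calcium handling. This raised the median log2 value of all genes by 0.65 at 24 h and by 1.56 at 72 h. On that scale none of the 9 genes was called lower than sham at any time. At 24 h 4 were called, all higher, beside 64% of all genes called and 60.6% called higher: Adrb1 at log2 0.60 ± 0.18, Grk5 at 2.33 ± 0.25, Pde3a at 0.48 ± 0.15 and Crem at 1.15 ± 0.21. At 72 h 6 were called, all higher, beside 87.5% called and 85% called higher. They were Grk5 (2.54 ± 0.26), Crem (1.94 ± 0.21), Pde3a (0.91 ± 0.16), Pde4d (0.51 ± 0.18), Adcy5 (0.46 ± 0.12) and Adra1b (0.31 ± 0.14). Adrb1 (0.28 ± 0.18), Adra1a (0.11 ± 0.27) and Adcy6 (0.05 ± 0.10) were not called, with edgeR adjusted p of 0.145, 0.696 and 0.664.

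So 7 of the 9 genes changed sign with the scale at 72 h, and Grk5 and Crem were higher on both. The reference genes themselves moved apart: on the TMM scale at 72 h they ran from -2.32 for Myl2, a myosin light chain, to 0.27 for Slc8a1, the sodium-calcium exchanger, with 14 of 15 called lower and a median of -1.49. The median of the 9 genes, -1.09, lay above it. With only the 6 calcium handling genes as reference, 3 of the 9 were called at 72 h, and Adrb1, Adra1a and Adcy6 were at -0.02, -0.19 and -0.26. At 6 h Grk5 (0.99 ± 0.25) and Crem (0.79 ± 0.21) were called on this scale, where 17.1% of all genes were, 11.8% higher. Neither was called without the 6 h library with atrial markers, and Crem was also not called without the first or the second sham library (edgeR adjusted p of 0.0656 and 0.0531). At 72 h the Adra1b call on this scale was lost without any 1 of the 3 sham libraries, without the third 1 h library or without the first 72 h library, and the Pde4d call without the second 72 h library. At 10 min and 1 h edgeR called none of the 9, beside 0.0184% and 0.184% of all genes.

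**Figure D2:**
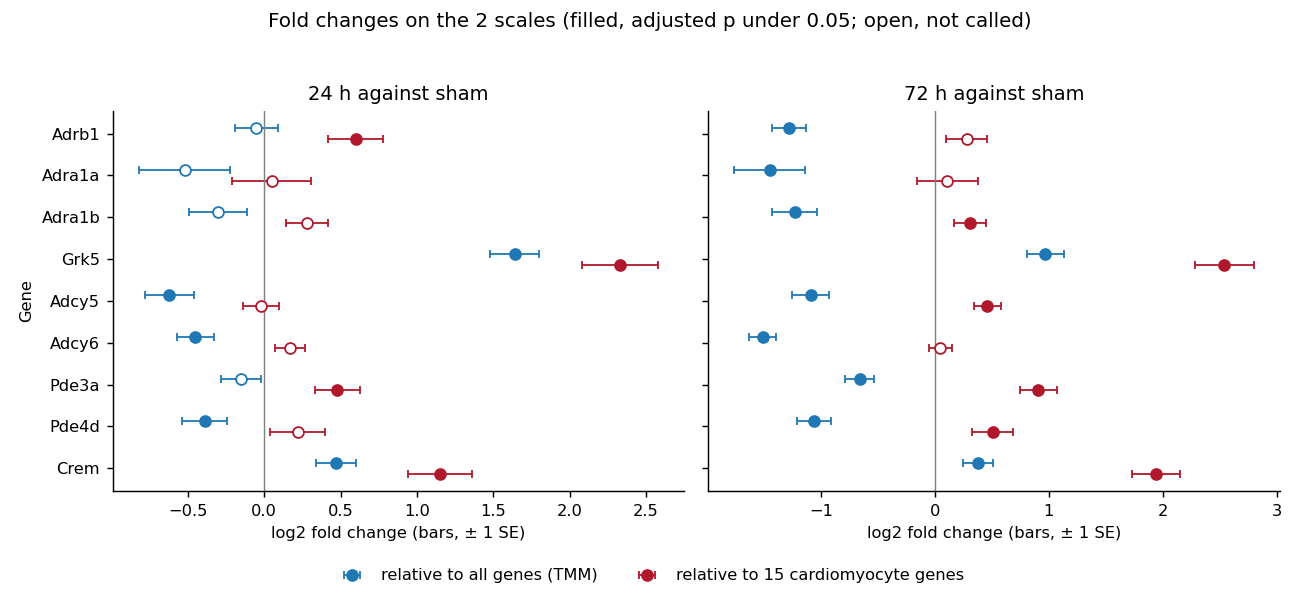
Log2 fold change against sham (x axes) of the 9 genes (y axis) at 24 h and 72 h, relative to all genes by TMM (blue) and to 15 cardiomyocyte genes (red); bars are ± 1 SE and filled points have an adjusted p under 0.05. At 72 h the blue points of 7 genes lie left of 0 and their red points right of it, while Grk5 and Crem lie right of 0 on both scales.

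Levels were also compared within gene families, as shares of the family's summed FPKM in each library, which do not depend on how libraries are scaled but do depend on the gene lengths the authors used. These shares were computed after the gene results were known and carry no test. Grk5 went from 22% ± 1.27 of receptor kinase FPKM in sham to 40.4% ± 1.93 at 24 h (SD, n = 3). By the deposited FPKM it then equalled Grk2, the best studied kinase of beta receptors, at 40.4% ± 0.433. That equality rests on a Grk5 length of 3165 bases, implied by counts and FPKM, where GENCODE M21 gives 7055 exon bases. A longer length would lower the Grk5 share in every group. At 72 h its share was back to 27.8% ± 2.75.

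Adcy6 went from 53.7% ± 1.1 to 30.2% ± 0.833 of the family's FPKM and Adcy5 from 17.9% ± 0.686 to 13.5% ± 1.6 between sham and 72 h. Adcy7, a cyclase best known from blood and immune cells, went from 3.31% ± 0.545 to 26.8% ± 0.745. Among the PDE3 genes, Pde3a held 92.7% ± 2.5 in sham and 69.1% ± 1.73 at 72 h, with Pde3b making up the remainder. Pde4d held 10.4% ± 0.301 of PDE4 in sham, 12.8% ± 1.24 at 1 h, 9.82% ± 1.65 at 6 h, 9.81% ± 1.78 at 24 h and 10.5% ± 1.44 at 72 h. In the same family, Pde4b went from 16.4% ± 0.94 to 55.6% ± 12.7 at 6 h and Pde4c from 16.8% ± 1.97 to 3.07% ± 0.62 at 72 h.

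**Figure D3:**
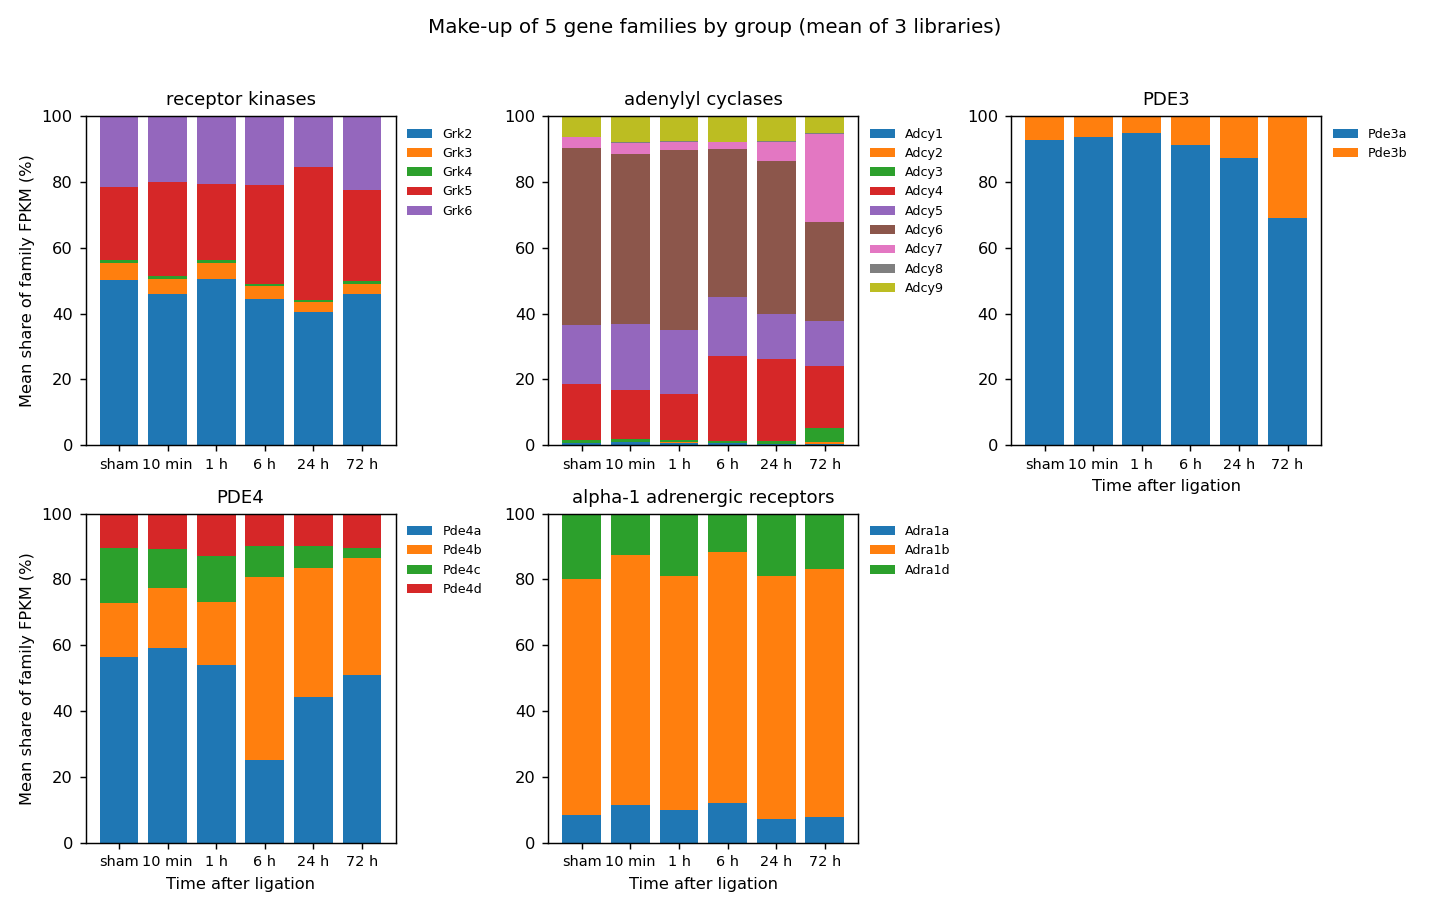
Mean share of each gene in its family's summed FPKM (y axes, percent, 3 libraries per bar) by group (x axes) for 5 families. The share of Adcy7 widens to 26.8% at 72 h, that of Pde4b to 55.6% at 6 h and that of Grk5 to 40.4% at 24 h.

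In the wider pathway 90 further genes were listed by role, of which 87 were tested; Adrb3, Adra2a and Adcy10 were too low. At 10 min edgeR called none, with 12 at an unadjusted p under 0.05, beside 7.01% of all genes. DESeq2 called 2 at that time, and the share of all genes it called is not given here. At 1 h 5 were called, all higher, beside 0.294% of all genes. At 6 h 22 were higher and 15 lower, where 28.4% of all genes were called. At 24 h the counts were 22 and 24, beside 23.7% of all genes higher and 20.2% lower. At 72 h they were 23 and 40, beside 34.2% and 32.2%, with a median log2 fold change of -0.24. Relative to the 15 cardiomyocyte genes the balance turned over, with 57 higher and 6 lower at 24 h, beside 60.6% of all genes higher, and 66 higher and 3 lower at 72 h, beside 85% higher, with a median of 1.33. The pathway values that follow are on the TMM scale unless the other is named. On the TMM scale the counts at 72 h stand beside 34.2% of all genes higher and 32.2% lower. Of the other adrenergic receptors, Adra1d (-1.56 ± 0.25), Adra2b (-1.74 ± 0.31) and Adra2c (-2.20 ± 0.49) were lower at 72 h. Counts of the last 2 were low, 29 to 44 for Adra2b and 13 to 33 for Adra2c in sham. At 72 h they were 15 to 19 and 3 to 12. Relative to cardiomyocyte genes Adra1d, Adra2b and Adra2c were at -0.01, -0.19 and -0.70 and were not called. On the TMM scale 4 of the 6 other receptor kinase and arrestin genes were higher at 72 h and none lower. Relative to cardiomyocyte genes all 6 were higher, beside 85% of all genes. Arrb2, the beta-arrestin-2 gene, went from 18, 19.1 and 19.4 CPM in sham to 101, 89.2 and 118 CPM (log2 2.45 ± 0.22, edgeR adjusted p = 6.74e-08), and Arrb1 was higher by log2 1.11 ± 0.16.

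Among 10 G protein subunits, 6 were higher and 2 lower at 72 h. The inhibitory subunits Gnai2 (log2 0.79) and Gnai3 (1.48) were higher, while the stimulatory subunit gene Gnas (-0.37) was lower. Relative to cardiomyocyte genes all 10 were higher, beside 85% of all genes. Gng2, a gamma subunit, rose most, from 3.39 to 3.82 CPM in sham to 25.6 to 29.8 CPM at 72 h (log2 2.91 ± 0.17). Of 7 other cyclases tested, 3 were higher at 72 h, Adcy7 (2.33 ± 0.16), Adcy2 (2.01) and Adcy3 (1.72), and 4 lower, Adcy1, Adcy4, Adcy8 and Adcy9. Relative to cardiomyocyte genes 5 of the 7 were higher and none lower, beside 85% of all genes higher. Adcy7 had been lower at 6 h, with 11.3, 7.99 and 8.57 CPM against 17.5, 13 and 16.8 CPM in sham (log2 -0.77 ± 0.17, edgeR adjusted p = 0.00244). By 72 h it read 80.2, 80.4 and 78.6 CPM, alongside the macrophage marker sums of 2628 to 3465 CPM given above; what part those cells have in it was not tested.

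Of 15 other phosphodiesterases, 3 were higher and 7 lower at 72 h. Relative to cardiomyocyte genes 13 were higher and 1 lower, Pde4c at log2 -1.98, beside 85% of all genes higher. Pde1a (1.83), Pde1b (2.33) and Pde3b (1.83) were the 3 higher genes, and Pde4c fell most, from 11.2, 14.0 and 11.6 CPM in sham to 1.32, 0.822 and 1.05 CPM (log2 -3.52 ± 0.24, edgeR adjusted p = 9.64e-10). A brief rise was seen in Pde4b, named here after its values were seen. It read 22.9, 21.2 and 23.7 CPM in sham, 142, 75.4 and 53.2 CPM at 6 h (log2 2.0 ± 0.29, edgeR adjusted p = 2.07e-04) and 21.9, 25.1 and 22.3 CPM at 72 h. Without the first 6 h library, which held the 142 CPM, the 6 h value was 1.51 ± 0.20 (edgeR adjusted p = 1.29e-04).

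Among 10 A-kinase anchoring proteins, which hold protein kinase A near its targets, 6 were lower and none higher at 72 h, beside 32.2% and 34.2% of all genes. Akap6, the anchor at the nuclear envelope of muscle cells, was at log2 -1.10 ± 0.13, Akap7 at -1.29 ± 0.11 and Akap1, of the outer mitochondrial membrane, at -1.36 ± 0.13. The direction turned relative to cardiomyocyte genes, where 7 of the 10 were higher and none lower, beside 85% of all genes higher. Akap6 was called higher at 0.46 ± 0.15 (edgeR adjusted p = 0.00625), and Akap7 at 0.27 and Akap1 at 0.19 were not called. Akap12, also named after its values were seen, went the other way at 6 h. Its libraries read 64.3, 60.6 and 61.0 CPM in sham and 817, 290 and 272 CPM at 6 h (log2 2.89 ± 0.41, edgeR adjusted p = 2.11e-04), or 2.18 ± 0.27 without the first 6 h library. At 72 h it read 49.8 to 56.9 CPM and was not called on the TMM scale. These values lay below all sham values, but 75.8% of all genes did not overlap with sham at 72 h. Relative to cardiomyocyte genes Akap12 was called higher (log2 1.33 ± 0.48, edgeR adjusted p = 0.0181).

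Of 9 genes for protein kinase A subunits and inhibitors, 3 were higher and 4 lower at 72 h. The main catalytic subunit gene Prkaca went from 263 to 289 CPM in sham to 98.5 to 122 CPM (log2 -1.36 ± 0.13), while the regulatory subunit gene Prkar2b (2.75 ± 0.28) and the inhibitor gene Pkib (2.56 ± 0.26) rose. Both Epac genes, Rapgef3 and Rapgef4, which encode the other cyclic AMP sensors, were lower, by log2 -1.28 ± 0.13 and -1.29 ± 0.11. Relative to cardiomyocyte genes Prkaca (0.20), Rapgef3 (0.27) and Rapgef4 (0.28) were above sham and not called. On that scale 8 of the 9 kinase genes were higher and none lower, beside 85% of all genes higher. All 9 cardiac substrates of protein kinase A were lower at 72 h, beside 32.2% of all genes. Pln, phospholamban, which restrains the calcium pump, went from 1571 to 1760 CPM in sham to 318 to 458 CPM (log2 -2.18 ± 0.19), and Tnni3, cardiac troponin I, was at -2.17 ± 0.17. Relative to the 15 cardiomyocyte genes, which include some of these substrates, 3 of the 9 were higher and 2 lower at 72 h, beside 85% of all genes higher.

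Of 8 genes for CREB family members and coactivators, 4 were higher at 6 h, beside 16.3% of all genes, and none was lower. The 4 were Crtc2 (0.63), Atf1 (0.39), Crebbp (0.31) and Creb3 (0.25). The earliest edgeR calls of the pathway came from 7 genes with well known CREB sites, many of them also early response genes to other stimuli. At 10 min edgeR called none of the 7. Fos then read 10.5 to 23.8 CPM and Dusp1 158 to 176 CPM (sham, 64.9 to 83.3 CPM), above all sham values. Nr4a1, at 19 to 35.4 CPM, overlapped with sham at 10 min. At 1 h 5 of the 7 genes were higher: Fos, Nr4a1, Dusp1, Sik1 (2.17) and Nr4a2 (1.27). Fos, a subunit of AP-1, read 1.31, 2.18 and 1.64 CPM in sham and 204, 170 and 284 CPM at 1 h (log2 7.0 ± 0.65, edgeR adjusted p = 1.43e-04). Nr4a1 was at 3.64 ± 0.34 and Dusp1 at 2.52 ± 0.25. In the same libraries Crem was at -0.32 ± 0.14 and was not called, and it rose by 6 h. At 6 h 6 of the 7 genes were higher than sham, beside 16.3% of all genes, Per1 (0.68, edgeR adjusted p = 0.0319) among them. At 72 h 2 of the 7, Fos and Nr4a2, were higher, and Per1 (-2.01) and Ppargc1a (-1.84) were lower. Against cardiomyocyte genes 5 of the 7 were higher and none lower, beside 85% of all genes higher.

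**Figure D4:**
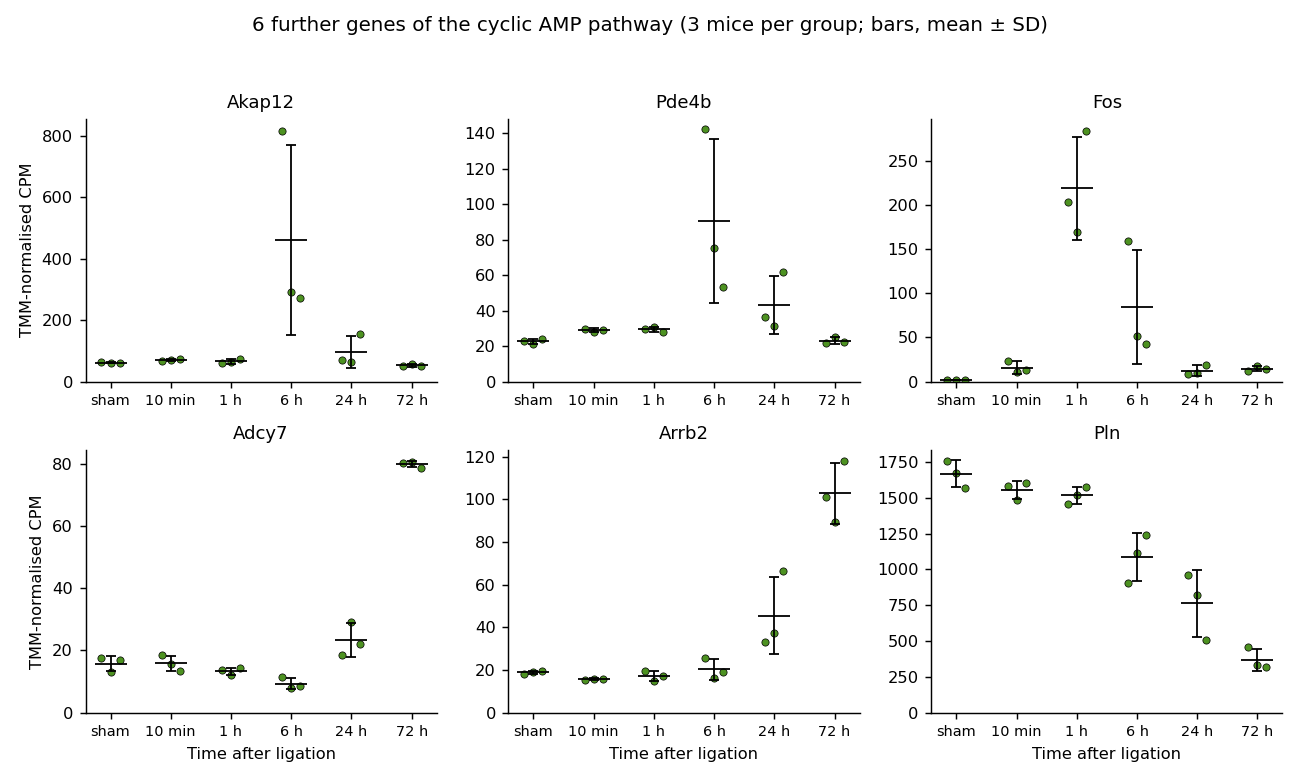
TMM-normalised CPM (y axes, from 0) of 6 further pathway genes in each of 18 libraries, by group (x axes); points are single mice, horizontal marks the mean of 3 and bars the SD. Fos is highest at 1 h, Akap12 and Pde4b at 6 h, with 1 library above the other two, and Adcy7 and Arrb2 at 72 h, while Pln is lowest there.

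Over the 18 libraries the 7 genes that were lower at 72 h varied together, with Pearson correlations of log2 CPM between 0.75 and 0.95. The highest was between Adcy5 and Pde4d. Grk5 and Crem were correlated at 0.75 with each other and between -0.65 and -0.29 with the other 7. These values describe libraries that share their groups, so they follow the time course and carry no test. Of the 11677 genes compared, those averaging 50 counts or more, the closest patterns to Adcy6 were those of Fig4, Ccdc85c and Fem1a (each r = 0.99), and to Adcy5 those of Tarsl2 (0.99), Grsf1 and Whrn (0.98). Adra1a was closest to Ryr2, the calcium release channel of the sarcoplasmic reticulum (0.97), Adra1b to Dcaf12l1, Mmaa and Slc25a46 (0.97), and Adrb1 to Trib2 and Mcat (0.95). Pde3a was closest to Tbc1d4 (0.95) and then to Akap6 (0.93), Pde4d to Pptc7 and Fyco1 (0.97), Grk5 to Pdcd6ip (0.95) and Crem to Nol9 and Pisd (0.95).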

How the data were processed

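RNA from 18 heart samples, 3 mice in each of 6 groups, was sequenced as poly(A)-selected libraries, and GEO's titles gave each library's group and replicate number. Per the submitters' processing notes the reads were trimmed with cutadapt 1.18, aligned to mm10 with HISAT2 2.1.0 and counted with featureCounts; the annotation release and the use of strand are not given in the sources used here. The authors deposited gene counts and FPKM values. The whole-series and per-sample tables agreed in every value. Per the values, the deposited FPKM columns of 6 h replicates 2 and 3 each hold the other's counts, which leaves group values unchanged.

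Of 30583 gene IDs, 30512 matched a symbol. Counts were filtered with edgeR's filterByExpr, leaving 16311 genes and all 9 members, normalised by TMM and tested with edgeR 4.0.16 (R 4.3.3) by the quasi-likelihood F test, with all 18 libraries in 1 fit (biological coefficient of variation 0.149). A gene was called at a Benjamini-Hochberg adjusted p under 0.05 over all genes tested. CPM are TMM-normalised. A second scale took the size of each library from 15 cardiomyocyte genes. The fits were tested on simulated counts. Members and lists were chosen with earlier results of these data known. Of each pathway list the 3 genes with the smallest F test p were named, with others said to be chosen later or named to account for a small count; for each member the genes most correlated with it were named. A few results that these rules would name are not reported here. Alternatives were other normalisations, filters and fits, limma 3.58.1 on log2(FPKM + 1), DESeq2 1.42.0, a replicate block and leaving out each library.

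FPKM compares levels between genes only as far as the authors' lengths hold: the lengths implied by counts and FPKM equalled the GENCODE M21 exon length for 90.0% of 20993 genes, and differed for Adrb1, Grk5, Adcy5 and Adcy6. Antisense genes overlap exons of Adcy6 and Pde3a, with at most 1 and 29 counts. The labels do not say whether the 3 libraries of a group came from separate litters or operation days. Library totals were 18199172 to 25062351 counts, and the lowest count of any member in a library was 100.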

Additional observations from a re-analysis of the deposited data

Results flagged for a closer look

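For 15 of the 36 differences between consecutive times, 9 genes over 4 steps, the effect against sham changed from one time to the next by edgeR's test of the difference itself. From 1 h to 6 h the log2 differences were 0.69 for Grk5, -0.48 for Adcy6 and 0.99 for Crem. From 6 h to 24 h they were -0.99 for Adra1a, 0.77 for Grk5, -0.59 for Adcy5 and -0.46 for Pde4d. From 24 h to 72 h the receptor genes differed by -1.23 (Adrb1), -0.93 (Adra1a) and -0.92 (Adra1b), Grk5 by -0.67, the cyclase genes by -0.47 (Adcy5) and -1.06 (Adcy6), and the phosphodiesterase genes by -0.52 (Pde3a) and -0.67 (Pde4d). The libraries of the 2 times overlapped for Pde4d from 6 h to 24 h and for Adra1b and Adcy5 from 24 h to 72 h.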

How the results depend on the processing

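Every call at 6 h and 72 h kept its direction under all 27 other settings of the TMM-scale fits, and at 72 h the exceptions to the call itself were Pde3a (library totals and both FPKM fits) and Crem (without sham replicate 1 or 2). Scaling to library totals alone gave all genes a median log2 value of -0.12 (6 h), 0.20 (24 h) and 0.61 (72 h), with 40.6%, 75.5% and 79.9% of calls higher. Under it 3 members were called at 24 h, 5 from 1 h to 6 h, 1 from 6 h to 24 h and 3 from 24 h to 72 h. limma on log2(FPKM + 1) called 3, 5, 1 and 4 in these comparisons, and with a pseudocount of 0.1 it called 3 at 24 h, 1 from 6 h to 24 h and 3 from 24 h to 72 h. With only the 6 libraries compared, 3 were called at 10 min, 1 at 1 h and 0 from 6 h to 24 h. Without the filter, and with DESeq2, 1 was called at 10 min. The shares of all genes called in these fits are not given here, so these counts have no background to stand beside. With calcium handling genes as the reference, 2 were called at 24 h and 3 at 72 h, with Adrb1, Adra1a and Adcy6 reversed at -0.02, -0.19 and -0.26; Adra1a was also reversed without sham replicate 1, in a range of -0.0027 to 0.24 over the libraries left out. The causes of these shifts were not tested.

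Leaving out each library in turn gave 0 to 1 members called at 10 min, 0 to 0 at 1 h, 2 to 3 at 6 h, 3 to 8 at 24 h, 8 to 9 at 72 h, 0 to 0 from 10 min to 1 h, 3 to 5 from 1 h to 6 h, 2 to 6 from 6 h to 24 h, 6 to 8 from 24 h to 72 h and 9 to 9 at any time. The 24 h count was 8 without 24 h replicate 1 and 3 without 24 h replicate 3. Relative to cardiomyocyte genes the counts were 0 to 0 at 10 min and 1 h, 0 to 2 at 6 h (0 without 6 h replicate 1), 4 to 5 at 24 h and 5 to 6 at 72 h. The replicate numbers were not treated as pairs. Same-numbered libraries correlated in their deviations at a median r of 0.035, with 4 of 45 pairs over 0.1, and differently numbered ones at -0.013, with 9 of 90. With 3 libraries a group these values cannot show that no pairing existed. With the number as a replicate block, 0, 0, 2, 5 and 9 members were called at the 5 times against sham, the same counts as without it. With 3 mice a group and counts as low as 100, an adjusted p over 0.05 at 10 min or 1 h does not show that a member was at its sham level.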
